A study of Homo sapiens with 6 samples.

Results

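Mitochondrially encoded genes were taken by symbol, as every row that starts with MT-, a rule that uses no measured value. They made up 37 of the 60725 rows: 13 mRNAs, 2 ribosomal RNAs and 22 transfer RNAs. The samples were 3 libraries from xenografts given recombinant human lumican (rhLUM) and 3 from controls (Ctrl), all grown from MHCC97L, an established human hepatocellular carcinoma line. Lumican is a secreted proteoglycan of the extracellular matrix. The comparison asks how tumour transcripts differ when lumican is supplied. The sources used here do not give what the controls received, nor the dose, route and duration, nor the host animal's strain and age. Both groups come from 1 cell line. Since the labels do not say that each library is a tumour of its own, the p-values reflect spread among libraries, part or all of which could be technical.

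The human mitochondrial genome is a small circle whose strands are each transcribed into long precursors. Transfer RNAs lie between most of the longer genes, and their excision releases the ribosomal RNAs and mRNAs. The mRNAs encode membrane subunits of the respiratory chain (complexes I, III and IV) and of ATP synthase (complex V), the enzymes of oxidative phosphorylation. All other subunits, and every protein that copies, reads or processes mitochondrial DNA and RNA, are encoded in the nucleus. Most mitochondrial mRNAs carry short poly-A tails, so selection on poly-A captures them, while the mRNA of MT-ND6 is known to lack such a tail or to carry only a few bases.

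Values are TPM, an estimate of transcript abundance per unit of length that sums to the same total in each library, so depth is unknown. Mitochondrial rows held 14.5%, 14.4% and 14.3% of TPM in the rhLUM libraries, against 20.5%, 20.6% and 20.7% in the Ctrl libraries. The groups did not overlap, and the difference of means was -6.19 percentage points. The 13 markers of hepatocytes and liver cancer, 10 of them at a mean of 1 TPM or more, summed to between 4985 and 4995 TPM in rhLUM and between 3230.2 and 3249.7 TPM in Ctrl, with GPC3 and APOA2 under 1 TPM. Its members went both ways: KRT8, the largest, averaged 2474 ± 9.59 TPM in rhLUM and 1060.3 ± 4.73 TPM in Ctrl, while SERPINA1 averaged 208 ± 5.32 TPM in rhLUM and 379 ± 2.27 TPM in Ctrl, and FGB 249 ± 8.15 TPM in rhLUM and 545 ± 1.85 TPM in Ctrl (SD, n = 3 each). The 10 leukocyte markers summed to between 300.7 and 306 TPM in rhLUM and between 215 and 217 TPM in Ctrl, mostly LYZ, with PTPRC under 1 TPM. Endothelial markers, 3 of 6 at a mean of 1 TPM or more, summed to between 27.2 and 31.9 TPM in rhLUM and between 22.2 and 23.5 TPM in Ctrl, with VWF and TEK near 0. Within them PECAM1 averaged 25.3 ± 2.43 TPM in rhLUM and 16.4 ± 0.285 TPM in Ctrl, and CDH5 went the other way, with 0.45 ± 0.053 TPM in rhLUM and 3.10 ± 0.344 TPM in Ctrl (SD, n = 3 each). Fibroblast markers, 4 of 8 at that level, summed to between 10.6 and 14.9 TPM in rhLUM and between 15.2 and 15.9 TPM in Ctrl, with PDGFRA near 0. Here DCN averaged 1.26 ± 0.316 TPM in rhLUM and 7.96 ± 0.351 TPM in Ctrl, while COL1A1 averaged 5.11 ± 0.924 TPM in rhLUM and 3.3 ± 0.727 TPM in Ctrl (SD, n = 3 each). Red cell markers, 1 of 7 at that level, summed to at most 2.91 TPM in rhLUM and at most 3.89 TPM in Ctrl. Muscle and fat markers, 1 of 10 at that level, summed to at most 3.89 TPM in rhLUM and at most 6.15 TPM in Ctrl, with ADIPOQ at 0. NEAT1, an RNA kept in the nucleus, averaged 237 ± 10.3 TPM in rhLUM and 698 ± 34.1 TPM in Ctrl (SD, n = 3 each). All of these rows are human genes, and the sources used here do not say whether host reads were removed. The markers therefore cannot be read as a measure of host cells in the xenografts. Their part in the mitochondrial values was not tested.

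The genes stand close together, and that arrangement bears on the values. MT-ATP8 and MT-ATP6 lie on a shared mRNA and overlap by 46 bases, at chrM:8527-8572 of GRCh38 on the plus strand. MT-ND4L and MT-ND4 lie on another shared mRNA and overlap by 7 bases, at chrM:10760-10766. The sequences show both overlaps in capitals, with 12 bases on either side, from the GENCODE release 29 transcripts.
MT-ATP8 end and MT-ATP6 start: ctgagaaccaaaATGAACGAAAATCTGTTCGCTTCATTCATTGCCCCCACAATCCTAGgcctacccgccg
MT-ND4L end and MT-ND4 start: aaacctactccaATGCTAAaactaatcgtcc
Each capital stretch opens with the start codon of the downstream gene and closes with the stop codon of the upstream gene. Reads that fall in these stretches have to be divided between the rows.

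The 3′ ends show how the tail takes part in the message. By the annotated gene ends, 6 of the 13 mRNA genes hold only part of a stop codon in the DNA, a T in 5 and TA in 1. The poly-A tail supplies the missing bases. MT-ATP6 counts as complete here, but its last base, chrM:9207, is also annotated as the first base of MT-CO3. The final 15 bases of the 6 incomplete genes are given below, with the bases after the last full codon in capitals. MT-ND5, whose stop codon is complete, is given beside them.
MT-ND1: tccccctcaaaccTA
MT-ND2: tactaataatcttaT
MT-CO3: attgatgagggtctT
MT-ND3: tagactgaaccgaaT
MT-ND4: ccgggttttcctctT
MT-CYB: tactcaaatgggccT
MT-ND5: ctcctaatcacaTAA
All 6 mRNAs with an incomplete stop codon were called lower in rhLUM, as were 6 of the 7 with a complete one (limma, adjusted p under 0.05). Among all 14781 genes tested, 22.3% were called lower and 44.5% higher. The median log2 fold change was -0.53 for the incomplete set and -0.51 for the complete set.

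Across the mitochondrial genome, 12 of 13 mRNAs and 1 of the rRNAs fell in the rhLUM libraries, and 1 mRNA, MT-ND5, rose (limma on log2(TPM + 1), adjusted p under 0.05). Of all 14781 genes tested, 22.3% were called lower and 44.5% higher. The median log2 fold change was -0.47 over the 15 mitochondrial mRNAs and rRNAs and 0.16 over all genes tested. For all 13 mRNAs the 3 rhLUM libraries lay wholly to 1 side of the 3 Ctrl libraries, a separation that 71.4% of all genes tested also showed. Less mitochondrial RNA per cell and a changed mixture of cells, host cells included, cannot be told apart in these bulk samples. Median-of-ratios scaling, which centres the typical gene, brought the median of all genes to -0.015 on the log2 scale. Under it 14 of the 15 were lower and none was higher, against 32.5% and 32.7% of all genes tested.

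**Figure D1:**
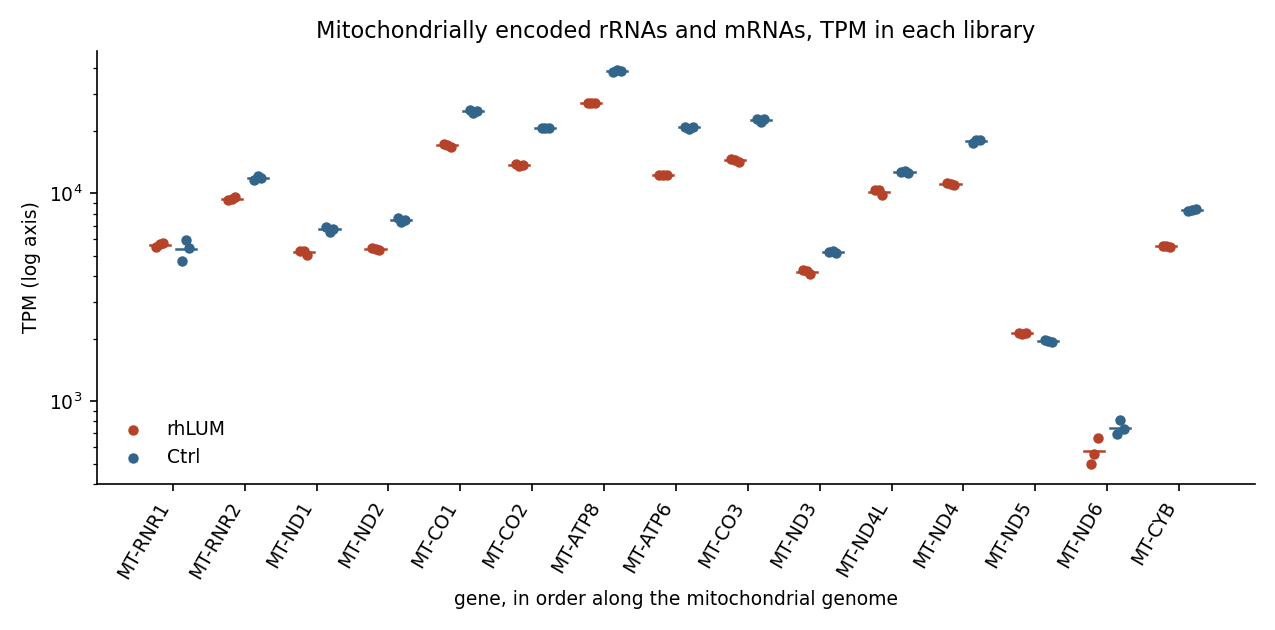
TPM (log axis) of the 2 rRNAs and 13 mRNAs in each library, with rhLUM to the left of Ctrl for each gene; points are libraries and lines are means of 3. The rhLUM points lie below the Ctrl points for every mRNA except MT-ND5, and for MT-RNR2 but not MT-RNR1.

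The complex V mRNAs fell, and MT-ATP6 had the largest fall of the 15. MT-ATP6, at chrM:8527-9207, encodes the membrane subunit that forms the proton path of ATP synthase. It had 12219, 12245 and 12226 TPM in the rhLUM libraries and 20870.2, 20458 and 20981 TPM in the Ctrl libraries. The 3 rhLUM values lay close together and below all Ctrl values. The fall was -0.76 in log2 TPM (SE 0.010, limma adjusted p = 1.63e-08), a drop of 41.1% in mean TPM. MT-ATP8, at chrM:8366-8572, encodes a small subunit that sits beside it. It was the highest row of every library, with 27299, 27374 and 27255 TPM in rhLUM and 38454, 39109 and 39002 TPM in Ctrl. In log2 TPM it changed by -0.51 (SE 0.0075, limma adjusted p = 2.37e-08). At 207 bases the gene is about as short as the fragments, which the labels give as 200 to 300 bases, so a level per unit of length is uncertain for it.

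The complex IV mRNAs MT-CO1, MT-CO2 and MT-CO3 encode the catalytic core of cytochrome c oxidase, and all 3 fell by like amounts. MT-CO1, at chrM:5904-7445, holds the haem groups where oxygen is reduced. It had 17292, 17084 and 16754 TPM in rhLUM and 25184, 24506 and 24983 TPM in Ctrl. MT-CO1 thus changed by -0.55 in log2 TPM (SE 0.014, limma adjusted p = 2.4e-07). MT-CO2, at chrM:7586-8269, takes electrons from cytochrome c. It had 13815, 13613 and 13681 TPM in rhLUM and 20677, 20646 and 20748 TPM in Ctrl, with a log2 fold change of -0.59 (SE 0.0075, limma adjusted p = 1.22e-08). MT-CO3, at chrM:9207-9990, encodes the third core subunit. It had 14705, 14423 and 14208 TPM in rhLUM and 22877, 22066 and 22854 TPM in Ctrl, with a log2 fold change of -0.65 (SE 0.018, limma adjusted p = 2.74e-07). No library of one group reached the range of the other for any of the 3.

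Complex III has 1 mitochondrially encoded subunit, cytochrome b. Its gene MT-CYB, at chrM:14747-15887, had 5586, 5557 and 5517 TPM in rhLUM and 8243, 8360.4 and 8408 TPM in Ctrl. The groups stood apart, and the gene fell by 33.4%, with a log2 fold change of -0.59 (SE 0.010, limma adjusted p = 4.52e-08). Its change lay within the range of the complex IV genes.

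The 7 complex I mRNAs encode the membrane arm that pumps protons, and they moved unevenly: 6 fell and MT-ND5 rose, with log2 fold changes from -0.69 to 0.12. MT-ND4, at chrM:10760-12137, had 11177, 11140.2 and 10953 TPM in rhLUM and 17556, 17999 and 18056 TPM in Ctrl. A log2 fold change of -0.69 (SE 0.013, limma adjusted p = 6.65e-08) put it beyond the values of the complex IV genes. MT-ND4L, at chrM:10470-10766, had 10345, 10394 and 9827 TPM in rhLUM and 12731, 12788 and 12580.5 TPM in Ctrl. The change was -0.32 in log2 TPM (SE 0.021, limma adjusted p = 1.23e-05), less than that of MT-ND4, although the genes share an mRNA. Neither gene's groups overlapped.

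MT-ND1 and MT-ND2 lie next to each other, with transfer RNAs between them. MT-ND1, at chrM:3307-4262, averaged 5205 ± 139 TPM in rhLUM and 6719 ± 187 TPM in Ctrl (SD, n = 3 each), a log2 fold change of -0.37 (SE 0.026, limma adjusted p = 1.47e-05). MT-ND2, at chrM:4470-5511, averaged 5386 ± 58.6 TPM in rhLUM and 7442 ± 128 TPM in Ctrl (SD, n = 3 each), a log2 fold change of -0.47 (SE 0.015, limma adjusted p = 4.47e-07). MT-ND3, at chrM:10059-10404, averaged 4203 ± 101 TPM in rhLUM and 5232 ± 60.3 TPM in Ctrl (SD, n = 3 each), a log2 fold change of -0.32 (SE 0.019, limma adjusted p = 6.79e-06). All 3 fell by less than any complex IV or V gene.

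MT-ND5, at chrM:12337-14148, is the longest of the mRNA genes, at 1812 bases, and encodes the outermost proton-pumping subunit of the arm. It had 2122, 2113 and 2124 TPM in rhLUM and 1974, 1939 and 1932 TPM in Ctrl. Every rhLUM library lay above every Ctrl library, by a small margin. It rose by 0.12 in log2 TPM (SE 0.012, limma adjusted p = 1.08e-04). The direction depends on the scaling: it was -0.077 after median-of-ratios scaling (limma adjusted p = 0.00215) and -0.11 after upper quartile scaling (limma adjusted p = 3.71e-04).

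MT-ND6, at chrM:14149-14673, is the 1 mRNA gene on the minus strand. It was the lowest mRNA, with 496, 558 and 666 TPM in rhLUM and 694, 808 and 733 TPM in Ctrl. The groups did not overlap, but the highest rhLUM library and the lowest Ctrl library lay close together. The log2 fold change, -0.38, carried the widest error of the 13 mRNAs (SE 0.11, limma adjusted p = 0.0149). The use of strand in the authors' counting is not given, so reads of plus-strand precursors across this gene cannot be told apart from its own.

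The rRNAs form the small and large subunits of the mitochondrial ribosome. MT-RNR2, the large rRNA at chrM:1671-3229, had 9332, 9397 and 9586 TPM in rhLUM and 11590.1, 12156 and 11806 TPM in Ctrl. It fell, with a log2 fold change of -0.33 (SE 0.019, limma adjusted p = 5.73e-06). MT-RNR1, the small rRNA at chrM:648-1601, had 5539, 5710 and 5766 TPM in rhLUM and 4722, 5947 and 5470 TPM in Ctrl. Here the groups overlapped, and the Ctrl libraries spread more widely than the rhLUM libraries. The log2 fold change of 0.082 was not called (SE 0.075, limma adjusted p = 0.362), and it was negative after both other library scalings, at -0.12 and -0.15. Without Ctrl replicate A, the lowest library, the value was -0.0083 (limma adjusted p = 0.86). Since these rRNAs carry short tails at most, how much of them poly-A selection captured is unknown.

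All 22 transfer RNA rows were listed at 0 in all 6 libraries. Their genes are 59 to 75 bases long, shorter than the fragments of the library, and transfer RNAs carry no poly-A tail. A listed 0 is therefore no measure of their level. Of the 37 members, the 22 transfer RNAs did not pass the minimum of a mean of 1 TPM, and the other 15 did.

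The order of levels was much the same in both groups. In rhLUM it ran MT-ATP8, MT-CO1, MT-CO3, MT-CO2, MT-ATP6, MT-ND4, MT-ND4L, MT-RNR2, MT-RNR1, MT-CYB, MT-ND2, MT-ND1, MT-ND3, MT-ND5 and MT-ND6. MT-RNR1 and MT-CYB were the only neighbours whose ranges overlapped in that order. In Ctrl MT-ATP6 stood just above MT-CO2, and MT-RNR1 stood between MT-ND1 and MT-ND3. The ranges of MT-ATP6 and MT-CO2, and those of MT-RNR1 and MT-ND3, overlapped there. Across the 13 mRNAs the log2 fold change of TPM fell as the mean level went up (Spearman -0.65), and showed little relation to gene length (Spearman -0.12). Across the 12 on the plus strand it showed little relation to position (Spearman 0.028). These points share the same 6 libraries and are given as a description.

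As shares of the summed mitochondrial TPM, the genes split. Shares sum to a fixed total, so a larger share of some genes means a smaller share of others. With the mitochondrial sum set equal in every library, 7 of the 15 were higher in rhLUM, 5 were lower and 3 were not called (limma, adjusted p under 0.05). Under this scaling 70.9% of all genes tested were called higher and 7.98% lower, the median log2 fold change over all genes being 0.61. Among the 13 mRNAs 5 were higher and 5 lower, and 10 had groups that did not overlap, against 80.5% of all genes tested.

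MT-ND5 gained the most in share, with 1.46%, 1.46% and 1.49% of mitochondrial TPM in rhLUM and 0.962%, 0.942% and 0.934% in Ctrl. That is 0.64 in log2 share (SE 0.015, limma adjusted p = 5.3e-08). MT-RNR1 followed, with 3.82%, 3.95% and 4.03% in rhLUM and 2.30%, 2.89% and 2.64% in Ctrl, a log2 fold change in share of 0.60 (SE 0.075, limma adjusted p = 1.88e-04). MT-ND3 and MT-ND4L each gained by 0.20 in log2 share (SE 0.017 and 0.019, limma adjusted p = 1.91e-05 and 3.65e-05). MT-RNR2 gained by 0.19 and MT-ND1 by 0.15 in log2 share (limma adjusted p = 1.01e-04 and 8.47e-04). The gain of MT-ND2, 0.049 in log2 share (limma adjusted p = 0.0182), ended when Ctrl replicate B, Ctrl replicate C or rhLUM replicate A was left out (limma adjusted p = 0.0552, 0.0594 and 0.0558).

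MT-ATP6 lost the most in share, with 8.43%, 8.47% and 8.55% of mitochondrial TPM in rhLUM and 10.2%, 9.93% and 10.1% in Ctrl. That is -0.25 in log2 share (SE 0.011, limma adjusted p = 7.08e-07). MT-ND4 changed by -0.17 and MT-CO3 by -0.13 in log2 share (limma adjusted p = 3.26e-06 and 1.67e-04). MT-CO2 and MT-CYB changed by -0.079 and -0.071 in log2 share (limma adjusted p = 6.66e-05 and 2.21e-04). MT-CO1 held 11.8 ± 0.11% in rhLUM and 12.1 ± 0.18% in Ctrl (SD, n = 3 each), a difference that was not called (log2 share -0.031, SE 0.013, limma adjusted p = 0.055). It was called without Ctrl replicate B (-0.042, limma adjusted p = 0.017). MT-ATP8 held 18.9 ± 0.11% in rhLUM and 18.9 ± 0.13% in Ctrl (SD, n = 3 each), with a log2 difference in share of 0.0065 (SE 0.0079, limma adjusted p = 0.47). It was called higher with only mRNAs in the denominator (0.040, limma adjusted p = 0.00927) and with a denominator that left out MT-ATP8, MT-ND4L and the transfer RNAs (0.026, limma adjusted p = 0.0259). MT-ND6 was at 0.13 in log2 share with a wide error (SE 0.11, limma adjusted p = 0.305).

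**Figure D2:**
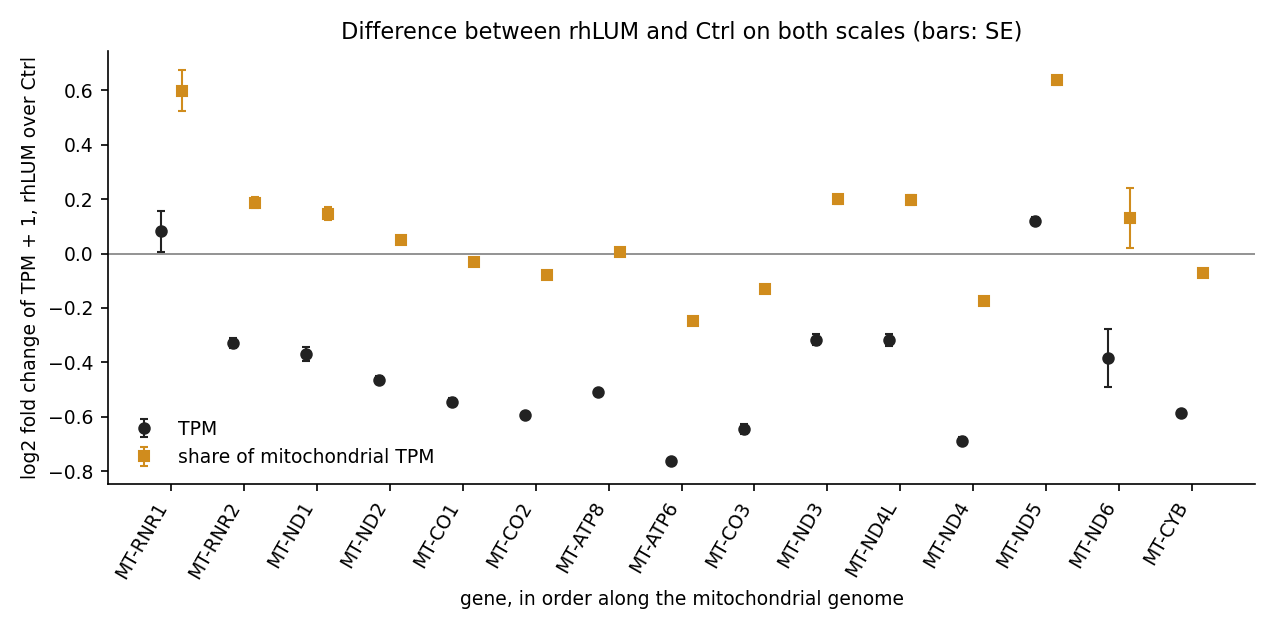
Log2 fold change of rhLUM over Ctrl for each mitochondrial mRNA and rRNA, from TPM (black circles) and from the share of mitochondrial TPM (orange squares); bars are SE from limma with 3 libraries per group. On the TPM scale all values but those of MT-RNR1 and MT-ND5 lie below 0, and on the share scale values run from -0.25 for MT-ATP6 to 0.64 for MT-ND5.

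By complex, the 7 complex I mRNAs together held 26.9 ± 0.26% of mitochondrial TPM in rhLUM and 25.6 ± 0.12% in Ctrl (SD, n = 3 each). The 3 complex IV mRNAs held 31.3 ± 0.22% in rhLUM and 33.1 ± 0.42% in Ctrl, and the complex V pair 27.4 ± 0.17% in rhLUM and 28.9 ± 0.052% in Ctrl (SD, n = 3 each). The rRNAs held 10.5 ± 0.24% in rhLUM and 8.36 ± 0.42% in Ctrl (SD, n = 3 each). For each of these sums the difference of means was larger than either SD. Sums over genes of different complexes were not tested. Within complex I, MT-ND4L held 7.07% in rhLUM and 6.16% in Ctrl, while MT-ND4 held 7.69% in rhLUM and 8.67% in Ctrl. MT-ATP8 held 18.9% in both groups. MT-ATP8 and MT-ND4L are about as short as the fragments, so the complex I and complex V sums are uncertain.

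Genes that share an mRNA did not keep a fixed ratio of TPM between the groups. The ratio of MT-ATP8 to MT-ATP6 was 2.23, 2.24 and 2.23 in the rhLUM libraries and 1.84, 1.91 and 1.86 in the Ctrl libraries. The ratio of MT-ND4L to MT-ND4 was 0.926, 0.933 and 0.897 in rhLUM and 0.725, 0.710 and 0.697 in Ctrl. In both pairs the shorter gene stood higher relative to its longer partner in every rhLUM library. The ratio of the rRNAs, MT-RNR1 to MT-RNR2, was 0.594, 0.608 and 0.602 in rhLUM and 0.407, 0.489 and 0.463 in Ctrl, again without overlap. MT-ND5 and MT-CYB lie on the same strand to either side of MT-ND6, and their ratio was 0.380, 0.380 and 0.385 in rhLUM and 0.240, 0.232 and 0.230 in Ctrl. A ratio within a library does not depend on the scaling of the whole library, and it shows unequal change of the listed values only. MT-ATP8 and MT-ND4L, at 207 and 297 bases, are about as short as the fragments, and reads in the overlaps have to be divided. The first 2 ratios are therefore uncertain as a measure of the RNA itself, and the part of gene length in them was not tested.

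**Figure D3:**
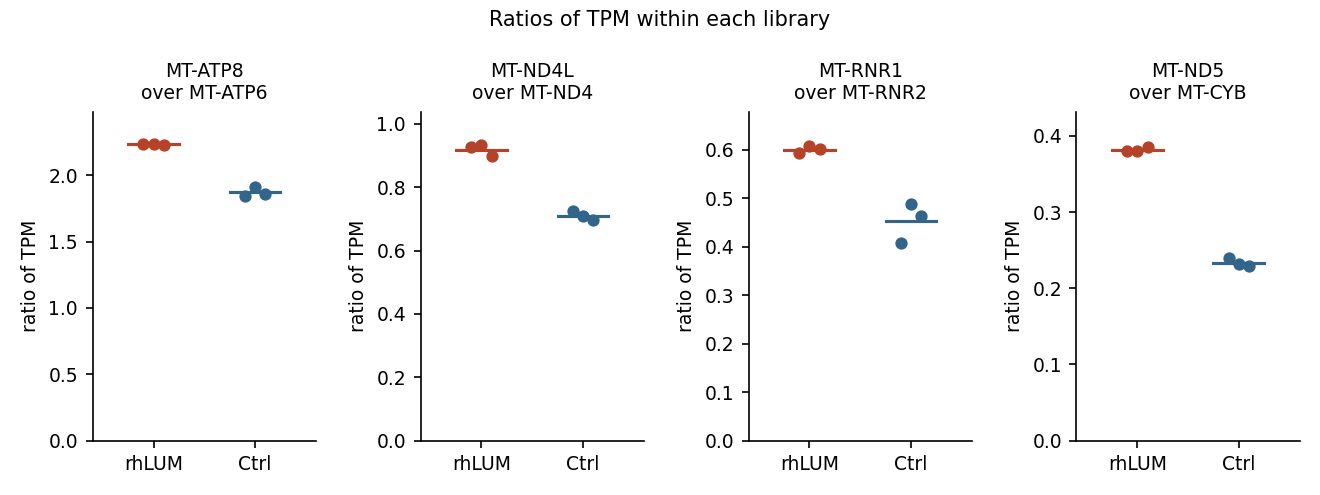
Ratio of TPM within each library for 4 pairs of mitochondrial genes, with rhLUM to the left of Ctrl; points are libraries, lines are means of 3, and each axis starts at 0. In each pair all 3 rhLUM libraries lie above all 3 Ctrl libraries.

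Nuclear genes that copy and read mitochondrial DNA went both ways. Of 9 tested genes of mitochondrial transcription, 4 were higher in rhLUM and 3 lower (limma, adjusted p under 0.05; background 44.5% and 22.3%), or 4 and 4 both on rescaling without the mitochondrial rows (background 37.7% higher and 27.9% lower) and after median-of-ratios scaling (background 32.7% and 32.5%). TFAM, which packs the genome and starts transcription, averaged 45.9 ± 2.14 TPM in rhLUM and 30.2 ± 2.38 TPM in Ctrl (SD, n = 3 each), a log2 fold change of 0.59 (limma adjusted p = 1.55e-04). TFB2M, the initiation factor that opens the promoter, and TEFM, the elongation factor, changed by 0.65 and 0.70 (limma adjusted p = 3.71e-05 and 4.18e-04). MTERF4, which acts with a methyltransferase in ribosome assembly, changed by 0.70 (limma adjusted p = 2.11e-04). POLRMT, the polymerase itself, averaged 18.5 ± 1.42 TPM in rhLUM and 26.5 ± 2.28 TPM in Ctrl (SD, n = 3 each) and changed by -0.50 (limma adjusted p = 0.00111). TFB1M, which methylates the small rRNA, and MTERF3 were the others called lower, at -0.39 and -0.20 (limma adjusted p = 0.00307 and 0.00878). The 3 that fell were named after their values were seen.

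Of 20 tested genes that maintain mitochondrial DNA, 10 were higher and 6 lower (background 44.5% and 22.3%). The counts were 10 and 7 without the mitochondrial rows (background 37.7% and 27.9%) and 7 and 8 after median-of-ratios scaling (background 32.7% and 32.5%). LIG3, the ligase of mitochondrial DNA, changed by 1.42, and RRM2B, a ribonucleotide reductase subunit, by 0.95 (limma adjusted p = 3.86e-06 and 9.05e-06). SUCLA2, a subunit of succinyl-CoA ligase, changed by 0.86, and TYMP, thymidine phosphorylase, by -1.13 (limma adjusted p = 3.32e-05 and 1.02e-05). The list's median was 0.13, beside 0.16 for all genes tested.

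Among genes of RNA cleavage and transfer RNA modification, the share called higher was near that of all genes tested. Of the 22 tested, 10 were higher and 3 lower (background 44.5% and 22.3%). The counts were 9 and 6 on rescaling without the mitochondrial rows (background 37.7% and 27.9%) and 7 and 8 after median-of-ratios scaling (background 32.7% and 32.5%). ELAC2, which cuts the 3′ ends of transfer RNAs from the precursor, changed by 0.95, and the transfer RNA methyltransferase NSUN3 by 0.79 (limma adjusted p = 6.98e-05 and 6.28e-05). The pseudouridine synthases TRUB2 and RPUSD4 changed by 0.76 and 0.52 (limma adjusted p = 2.97e-05 and 1.36e-04).

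Of 19 tested genes of mRNA stability and decay, 11 were higher and 2 lower (background 44.5% and 22.3%). The counts were 7 and 4 without the mitochondrial rows (background 37.7% and 27.9%) and 7 and 5 after median-of-ratios scaling (background 32.7% and 32.5%). GRSF1, an RNA granule protein, averaged 93.1 ± 2.16 TPM in rhLUM and 64.6 ± 0.49 TPM in Ctrl (SD, n = 3 each), a log2 fold change of 0.52 (limma adjusted p = 6.07e-06). FASTKD2 and FASTKD5, RNA-binding proteins of the same granules, changed by 0.77 and 0.67, and PDE12, which removes poly-A tails, by 0.81 (limma adjusted p = 1.76e-05, 6.63e-05 and 1.3e-04). LRPPRC and SLIRP encode the partners of the complex that stabilises mitochondrial mRNAs and were named after their values were seen. SLIRP averaged 201 ± 2.47 TPM in rhLUM and 238 ± 14.6 TPM in Ctrl (SD, n = 3 each) and fell by 0.24 on the log2 scale (limma adjusted p = 0.00202). LRPPRC stood at 0.25 (limma adjusted p = 0.0245), a call lost without the mitochondrial rows (0.14, limma adjusted p = 0.165) and after median-of-ratios scaling (0.051, limma adjusted p = 0.579).

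Of 18 tested translation factors, 10 were higher and 2 lower (background 44.5% and 22.3%). The counts were 7 and 6 without the mitochondrial rows (background 37.7% and 27.9%) and 3 and 6 after median-of-ratios scaling (background 32.7% and 32.5%). The balance thus turned with the scaling, and the shares of all genes tested moved the same way. The translation factors GFM2, TSFM and GFM1 changed by 0.60, 0.38 and 0.27 (limma adjusted p = 3.13e-04, 0.00146 and 2.79e-04), and GFM1 was not called after median-of-ratios scaling (0.075, limma adjusted p = 0.0948). C12orf65, a release factor, changed by -0.31 (limma adjusted p = 0.00105). Of 11 tested regulators of mitochondrial biogenesis, 5 were higher and 2 lower (background 44.5% and 22.3%). They numbered 4 and 3 under both other scalings (background 37.7% and 27.9% without the mitochondrial rows, 32.7% and 32.5% after median-of-ratios scaling). Among them GABPA, a transcription factor of nuclear respiratory genes, changed by 0.62 and MYC by 0.35 (limma adjusted p = 4.4e-05 and 5.47e-05). The lists overlap: TFAM, TFB2M and POLRMT are counted here and under transcription, and TFAM also under maintenance of mitochondrial DNA.

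Nuclear subunits of the same complexes were called in both directions, and differences between complexes were not tested. Of 37 complex I subunits, 12 were higher and 14 lower (background 44.5% and 22.3%). The counts were 4 and 19 without the mitochondrial rows (background 37.7% and 27.9%) and 3 and 23 after median-of-ratios scaling (background 32.7% and 32.5%). NDUFV2, NDUFA1 and NDUFB4 changed by -0.38, -0.30 and -0.22, and NDUFS1, which carries iron-sulphur clusters, by 1.13 (limma adjusted p = 3.09e-06, 1.35e-05, 5.09e-05 and 2.18e-06). Of 11 complex IV subunits, 2 were higher and 7 lower (background 44.5% and 22.3%). The counts were 2 and 7 without the mitochondrial rows (background 37.7% and 27.9%) and 1 and 8 after median-of-ratios scaling (background 32.7% and 32.5%). COX6B1 stood at -0.42 and COX6C at -0.31 (limma adjusted p = 5.86e-06 and 4.57e-06). COX5B and COX6A1 changed by -0.22 and -0.13 (limma adjusted p = 5.99e-04 and 9.82e-04). Of 17 complex V genes, 4 were higher and 7 lower (2 and 12 without the mitochondrial rows, 2 and 13 after median-of-ratios scaling), against the same background shares. They include ATPIF1, which encodes an inhibitor of the enzyme rather than a subunit and was among those lower (-0.37, limma adjusted p = 1.76e-04). ATP5H stood at -0.40, ATP5C1 at -0.39, ATP5A1 at 0.67 and ATP5F1 at 0.58 (limma adjusted p = 2.15e-05, 2.93e-05, 3.52e-06 and 1.48e-05). The list medians were -0.036 for complex I, -0.15 for complex IV and -0.082 for complex V.

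Of 9 nuclear complex III subunits, 4 were higher and 2 lower (background 44.5% and 22.3%). The counts were 3 and 3 without the mitochondrial rows (background 37.7% and 27.9%) and 2 and 4 after median-of-ratios scaling (background 32.7% and 32.5%). UQCRC1 changed by 0.66 and UQCRQ by -0.23 (limma adjusted p = 1.3e-05 and 2.4e-04). UQCRC2 and UQCRFS1 stood at 0.41 and 0.23 (limma adjusted p = 7.9e-05 and 0.00133), the second not called after median-of-ratios scaling (limma adjusted p = 0.495). Against the same background shares, complex II, which holds no mitochondrially encoded subunit, had 2 of 4 higher and 1 lower, or 1 and 1 after median-of-ratios scaling. These were SDHC at 0.67, SDHD at 0.21, not called after median-of-ratios scaling (limma adjusted p = 0.591), and SDHA at -0.30 (limma adjusted p = 2.48e-05, 2.61e-04 and 6.4e-04).

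Nuclear genes for other proteins of the organelle were called higher more often than lower, as were all genes tested. Of 23 tested genes of the outer membrane, import, matrix and fusion machinery, 22 were higher in rhLUM and none lower (background 44.5% and 22.3%), or 17 and 1 without the mitochondrial rows (background 37.7% and 27.9%) and 15 and 3 after median-of-ratios scaling (background 32.7% and 32.5%). The matrix chaperone HSPD1 averaged 927 ± 18.1 TPM in rhLUM and 538 ± 5.51 TPM in Ctrl (SD, n = 3 each), a log2 fold change of 0.79 (limma adjusted p = 1.78e-07). The prohibitin PHB changed by 0.90, the cristae protein CHCHD3 by 0.71 and the citrate synthase CS by 0.62 (limma adjusted p = 1.18e-06, 2.06e-06 and 2.07e-06). Of 19 tested mitophagy genes, 15 were higher and none lower against the same background shares, or 10 and 1 without the mitochondrial rows and 8 and 4 after median-of-ratios scaling. The autophagy receptors CALCOCO2, TAX1BP1 and NBR1 changed by 0.99, 0.81 and 0.76, and the receptor BCL2L13 by 0.81 (limma adjusted p = 1.37e-06, 1.36e-06, 6.95e-06 and 9.5e-06). Several of these receptors also serve other kinds of autophagy. Whether any of these lists differed from the mitochondrially encoded genes was not tested.

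**Figure D4:**
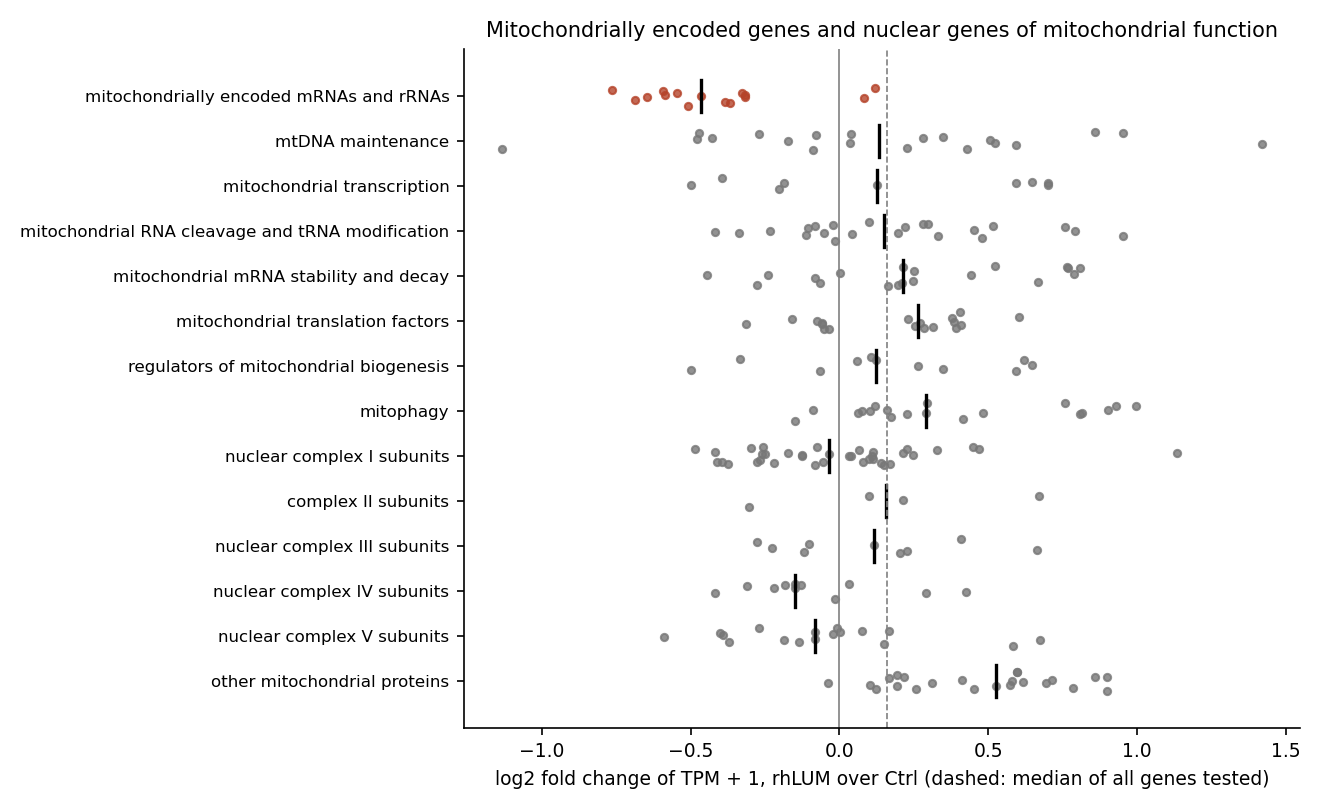
Log2 fold change of TPM + 1, rhLUM over Ctrl, for the mitochondrially encoded genes (red) and the nuclear lists (grey); points are genes, black bars are list medians, and the dashed line is the median of all genes tested, 0.16. The mitochondrially encoded median lies at -0.47 and that of the other mitochondrial proteins at 0.53.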

How the data were processed

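Per the labels' protocols, poly-A RNA was selected from the total RNA of xenografts, cut to fragments of 200 to 300 bases, amplified by 10 PCR cycles and sequenced in pairs of 151 bases. The submitters' processing notes name STAR 2.7.8 and RSEM 1.2.31, with GRCh38 as build. Which annotation release and strand setting applied, and whether host reads were removed, the sources used here do not give. The deposited values were TPM per the file headers, in 1 table for each library. TPM keeps no depth, so no counting interval is given.

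Rows whose symbol was shared (2210) were left out, none of them mitochondrial. The 14781 genes averaging 1 TPM or more were fitted with limma 3.58.1 in R 4.3.3 on log2(TPM + 1) with a variance trend and no covariate. Fold changes are rhLUM over Ctrl and understate the change of low genes. For shares, each library was rescaled to the same mitochondrial sum and the fit repeated. Tests were two-sided, with Benjamini-Hochberg adjustment across every gene in the fit. The fit was also run on simulated data in which few genes changed, as many up as down, and libraries varied independently. In the real data most genes were called, so that run cannot check the scaling or the independence of the libraries.

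The rule for the members reads symbols only, but the choice of this gene group and of the lists was made with earlier results of these data known. Named genes were every mitochondrial mRNA and rRNA, from each list the genes with the lowest p, at most 4, that were called and whose groups did not overlap, and nuclear copies with a mean of at least 1 TPM. Positions and sequences came from GENCODE release 29 on GRCh38, matched by symbol for all 37 members. That release may differ from the authors'. Alternatives were other pseudocounts, filters, scalings and denominators, a replicate block, limma without the trend, nuclear copies added to their genes, and leaving out each library.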

Additional observations from a re-analysis of the deposited data

How the results depend on the processing

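The count of 13 mitochondrial genes lower in rhLUM as TPM was 13 or 14 under all 13 alternatives run, 13 of them with a replicate block. The count higher, 1 as deposited, was 0 after median-of-ratios and after upper quartile scaling. Under those scalings MT-ND5 turned to -0.077 and -0.11, and MT-RNR1, which was never called, to -0.12 and -0.15. On leaving out a library MT-RNR1 ran from -0.0083 to 0.16. For shares the count lower was 5, and 3 in limma without the trend, where MT-CO2 and MT-CYB lost their calls (limma adjusted p = 0.0787 and 0.106). MT-ND2 lost its share call there (0.267), and MT-ND2 and MT-CO2 lost theirs without the filter on low values (limma adjusted p = 0.19 and 0.0701). With only mRNAs in the denominator MT-CO1 turned to 0.0025 in log2 share. With the replicate block MT-CO1 passed (limma adjusted p = 0.0373). The cause was not tested. Deviations of same-lettered libraries correlated at 0.029, -0.023 and 0.084 across 14781 genes, and those of other-lettered libraries at -0.084 to 0.051. The replicate letters thus gave no clear sign of pairing, but with 3 libraries per group these values cannot show that there was none. The difference in the summed mitochondrial share, -6.19 percentage points, was -5.98 for mRNAs only, -4.78 without MT-ATP8, MT-ND4L and the transfer RNAs, and -6.31 with nuclear copies added, since each sum takes in other rows. Depth is unknown, so the precision of each value rests on the spread of 3 libraries, which was widest among the mRNAs for MT-ND6.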

Other observations

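Nuclear DNA holds old copies of mitochondrial genes, and reads of mitochondrial RNA can be assigned to them. Of 310 such rows, 242 were at 0 in every library and 8 had a mean of at least 1 TPM. Together they summed to 2033 ± 20.6 TPM in rhLUM and 3232 ± 22.2 TPM in Ctrl (SD, n = 3 each). Nearly all of this was MTATP6P1, a copy of MT-ATP6 on chromosome 1 at chr1:633696-634376 (GRCh38, plus strand). MTATP6P1 had 1785, 1802 and 1817 TPM in rhLUM and 2853, 2866 and 2821 TPM in Ctrl, a log2 fold change of -0.66 (SE 0.012, limma adjusted p = 5.67e-08). It stood at 14.6%, 14.7% and 14.9% of the TPM of MT-ATP6 in rhLUM and at 13.7%, 14.01% and 13.4% in Ctrl.

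The copy and its gene are both 681 bases long in GENCODE release 29 and differ at 10 bases, an identity of 98.5%. A stretch of 60 bases with the most differences, bases 116 to 175 counted from 1 at the start of MT-ATP6, is given with the 3 differing bases in capitals.
MT-ATP6: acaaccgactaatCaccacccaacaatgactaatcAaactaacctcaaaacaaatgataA
MTATP6P1: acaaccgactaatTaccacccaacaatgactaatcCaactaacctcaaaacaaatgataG
The substitutions are C129T, A151C and A175G, with the base of MT-ATP6 before the position and that of the copy after it. Reads that span none of the 10 differences cannot be told apart.

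Other copies in the same block of chromosome 1 stood far lower. MTCO1P12 averaged 139 ± 4.23 TPM in rhLUM and 250.4 ± 11.95 TPM in Ctrl (SD, n = 3 each), or 0.818% of the TPM of MT-CO1 in rhLUM and 1.006% in Ctrl. MTND2P28, MTND1P23, MTCO2P12 and MTCO3P12 averaged 24.2, 20.6, 15.3 and 14.9 TPM in rhLUM and 33.6, 32.6, 22.7 and 21.4 TPM in Ctrl. Each was called lower in rhLUM (limma adjusted p from 0.00116 to 0.0282), as were MTCO1P12 and MTND4P12, a copy on chromosome 5 (limma adjusted p = 2.75e-06 and 0.0137). MTRNR2L12, a copy of MT-RNR2 on chromosome 3, was at -0.18 on the log2 scale (limma adjusted p = 0.144). Levels of these copies are uncertain, since they share nearly all their sequence with genes that are far more abundant.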
